A study of Bos taurus with 9 samples.

Results

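Bovine blastocysts that had been vitrified and warmed with α-ketoglutarate were compared with control blastocysts to describe which listed transcripts still stood away from the control level. A blastocyst is an early embryo with an outer trophectoderm, an inner cell mass and a fluid-filled cavity. The values cover the 47 genes of the deposited table of differentially expressed genes, and all 47 are described here. RNA was sequenced from 3 libraries of AKG-treated vitrified blastocysts, which the labels call vitrified-warmed (AKG+), from 3 libraries of AKG-free vitrified blastocysts, called vitrified-warmed (AKG-), and from 3 control libraries, for which the labels name no treatment. All 9 libraries are labelled female and embryo. The sources used here do not give the breed, the dose and timing of AKG or the number of embryos pooled in a library. The labels also do not state whether replicate libraries are separate batches of embryos, and p-values therefore reflect only how far these libraries spread, part of which may be technical.

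Vitrification cools an embryo to a glass without ice crystals, with the help of concentrated cryoprotectants, and warming then dilutes these out again. The procedure is known for osmotic stress, for the disturbance of membranes, cytoskeleton and mitochondria, and for reactive oxygen species. α-Ketoglutarate (AKG) is an intermediate of the tricarboxylic acid cycle and a co-substrate of dioxygenases that act on histones, DNA and proline residues, and it can react with hydrogen peroxide directly.

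Levels are given as FPKM, fragments scaled to gene length and library depth, as deposited, with mean ± SD of 3 libraries. Relative sequencing depth, derived from the ratio of count to FPKM, was 0.903 to 1.02 in AKG-treated libraries and 0.793 to 1.1 in control libraries around a mean of 1, and absolute depth is unknown. Of the 47 genes, 26 had a mean of at least 10 counts over the 6 libraries compared and were tested, 1 had fewer counts, and 20 had no read in these 6 libraries. Because the list is one of genes said to differ among these libraries, the tests and counts below describe its genes and are no independent evidence that any of them differs. The labelled tissue could be checked only through PAG11, the 1 listed gene among 18 trophectoderm markers. PAG11 had 1.52, 0 and 1.44 FPKM in control libraries and is itself listed as differing, so it cannot settle the tissue. No marker of the inner cell mass, primitive endoderm, cumulus, blood or sperm was among the listed genes, and those were not analysed here.

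With edgeR's quasi-likelihood test and Benjamini-Hochberg adjustment, 0 of the 26 genes were higher and 0 were lower in AKG-treated vitrified libraries at an adjusted p under 0.05 (0% in each direction), and the lowest adjusted p was 0.27. At an unadjusted p under 0.05, 4 genes were higher (15.4%) and 0 were lower (0%). These 4 were MOGAT1, S100A11, CRYAB and ENSBTAG00000050611, a gene without a symbol. CRYAB had 0 counts in control libraries and met the filter of 10 mean counts through AKG-treated reads alone, so its place among the 4 is no support. With a filter of at least 100 mean counts, which leaves CRYAB out, 3 of 21 genes were higher at an unadjusted edgeR p under 0.05. limma gave 0 and 0 after adjustment, and 4 higher and 1 lower before it, and DESeq2 gave 0 and 0 after adjustment, and 1 higher and 0 lower before it. By position, all 3 AKG-treated libraries lay above the control range for 6 of the 26 genes (23.1%), below it for 0 (0%) and within it for 5 (19.2%). The other 15 had AKG-treated libraries in more than 1 of these positions.

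The missed threshold does not show equal levels. A 95% interval of the fold change could be computed for 25 genes, and it lay within 1 log2 unit of 0 for 1 of them, ENSBTAG00000052882, a long noncoding RNA. For the other 24 it reached beyond 1 log2 unit on at least 1 side. The log2 fold change was above 0 for 19 genes and below 0 for 7, with a median of 0.40 over the 26. Scaling by TMM factors over these genes moved the median by -0.31 and DESeq2's size factors moved it by -0.42. Both methods take most genes as unchanged, which a list of genes chosen as differing need not meet.

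**Figure D1:**
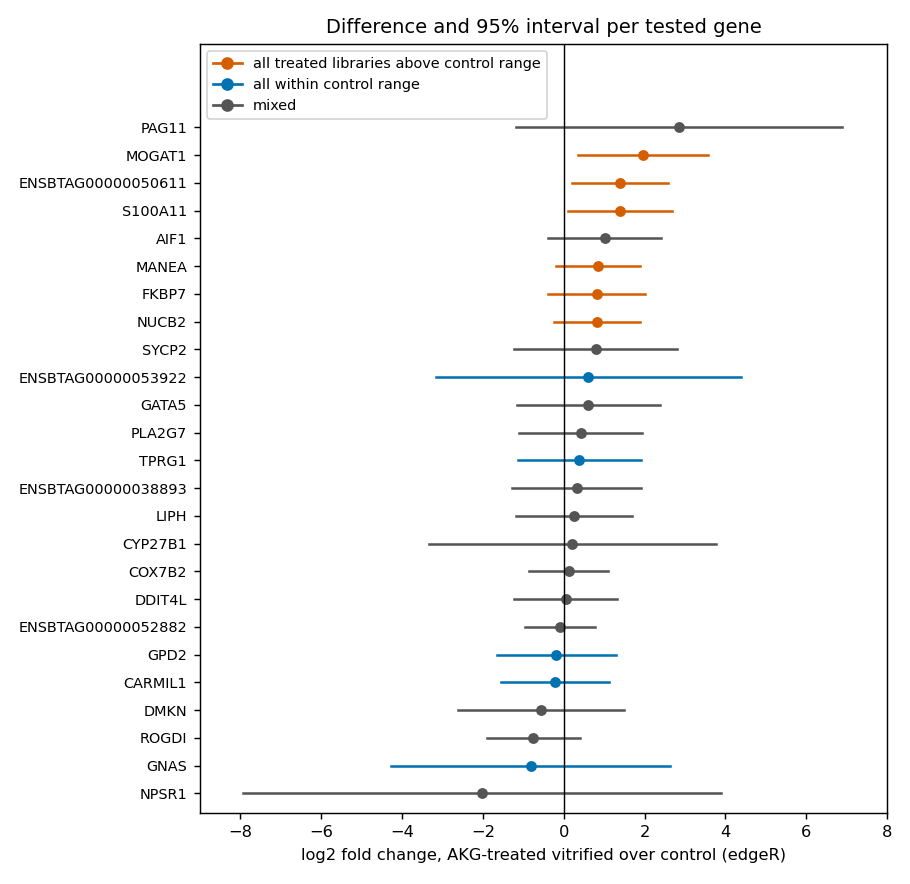
The log2 fold change of AKG-treated vitrified over control libraries (points, edgeR) with its 95% interval (lines) is shown for the 25 tested genes with reads in both groups, coloured by where the AKG-treated libraries lie relative to the control range. The intervals of MOGAT1, ENSBTAG00000050611 and S100A11 lie above 0 before adjustment, and the interval of NPSR1 is the widest of the 25, from -7.92 to 3.88.

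The calcium-binding proteins S100A11 and NUCB2 stood above the control range in every AKG-treated library. S100A11 (ENSBTAG00000015145, chromosome 3, 18727498 to 18733580), a small EF-hand protein linked to membrane repair and the cytoskeleton, had 92.4, 28.4 and 72.2 FPKM in AKG-treated libraries 1 to 3, against 57.4, 1178 and 1866 FPKM in AKG-free libraries and 24.9, 25.1 and 23.4 FPKM in control libraries. AKG-treated library 2 lay only 1.13-fold above the highest control library, while libraries 1 and 3 lay above AKG-free library 1. The mean was 64.3 ± 32.8 FPKM in AKG-treated and 24.5 ± 0.945 FPKM in control libraries (n = 3 each), a log2 fold change of 1.39 (SE 0.52, 95% interval 0.11 to 2.68, edgeR adjusted p = 0.27). NUCB2 (ENSBTAG00000017468, chromosome 15, 35156660 to 35179353), an EF-hand protein that is also the precursor of nesfatin, had 281, 185 and 127 FPKM in AKG-treated libraries 1 to 3, against 265, 674 and 859 FPKM in AKG-free libraries and 111, 111 and 114 FPKM in control libraries. AKG-treated library 1 was thus in the AKG-free range, while library 3 lay 1.11-fold above the highest control library. For NUCB2 the log2 fold change was 0.82 (SE 0.44, 95% interval -0.25 to 1.88, edgeR adjusted p = 0.423). Positions are those of the deposited tables, and the sources used here name no genome build.

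FKBP7 and MANEA, which act on new proteins in the secretory pathway, lay between the other groups in every library. FKBP7 (ENSBTAG00000001097, chromosome 2, 18418695 to 18426410), a prolyl isomerase of the endoplasmic reticulum, had 5.19, 5.56 and 5.41 FPKM in AKG-treated libraries, against 9.67, 16.3 and 21.4 FPKM in AKG-free libraries and 3.63, 1.49 and 4.03 FPKM in control libraries. The AKG-treated libraries were nearly equal, and the nearest control library was 1.29-fold lower than the lowest of them. This gave a log2 fold change of 0.82 (SE 0.49, 95% interval -0.38 to 2.02, edgeR adjusted p = 0.423). MANEA (ENSBTAG00000005026, chromosome 9, 54296791 to 54379111), an endomannosidase that trims glucosylated N-glycans in the Golgi, had 30.3, 25.6 and 22.4 FPKM in AKG-treated libraries, against 35.5, 75.6 and 64.5 FPKM in AKG-free libraries and 17, 9.47 and 16.9 FPKM in control libraries. AKG-treated and control libraries were 1.32-fold apart at their nearest, with a log2 fold change of 0.85 (SE 0.42, 95% interval -0.18 to 1.88, edgeR adjusted p = 0.423).

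MOGAT1 (ENSBTAG00000008431, chromosome 2, 110843395 to 110873230), which acylates monoacylglycerol to diacylglycerol, had the largest fold change of the 6 genes above the control range. Its levels were 3.07, 2.31 and 0.964 FPKM in AKG-treated libraries 1 to 3, against 4.52, 6.27 and 11.9 FPKM in AKG-free libraries and 0.381, 0.919 and 0.303 FPKM in control libraries. AKG-treated library 3 exceeded control library 2 by only 1.05-fold. The log2 fold change of MOGAT1 was 1.97 (SE 0.66, 95% interval 0.36 to 3.58, edgeR adjusted p = 0.27). Leaving out 1 library gave 1.60 to 2.61. Only the fits without AKG-treated replicate 3 (2.32) or control replicate 2 (2.61), the libraries nearest the other group, exceeded 1.97. With TMM factors it was 1.53 and with DESeq2's size factors 1.44. ENSBTAG00000050611 (chromosome 27, 5960716 to 5968525), a protein-coding gene without a symbol in the deposited annotation, had 19.6, 32.4 and 22.1 FPKM in AKG-treated libraries, against 23.7, 103 and 232 FPKM in AKG-free libraries and 10.6, 5.26 and 12.3 FPKM in control libraries. Its AKG-treated and control libraries were 1.59-fold apart at their nearest, and its log2 fold change was 1.39 (SE 0.49, 95% interval 0.21 to 2.58, edgeR adjusted p = 0.27).

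FKBP7, MANEA and MOGAT1 thus lay above every control library and below every AKG-free library, while S100A11, NUCB2 and ENSBTAG00000050611 overlapped the AKG-free range through AKG-free library 1. The count of 6 depends on how a separation is defined. With a gap of at least 1.5-fold between the nearest libraries, or after TMM scaling of the FPKM, 1 gene was left, ENSBTAG00000050611 in both cases. The 6 log2 fold changes stayed above 0 under each alternative, with a lowest value of 0.33 for NUCB2, 0.39 for FKBP7, 0.40 for MANEA, 0.95 for ENSBTAG00000050611, 0.96 for S100A11 and 0.98 for MOGAT1. As every AKG-treated library of these genes lay above every control library, leaving out a library could not turn the sign. Another test or filter could not turn it either, so only the other scalings were a check on it.

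**Figure D2:**
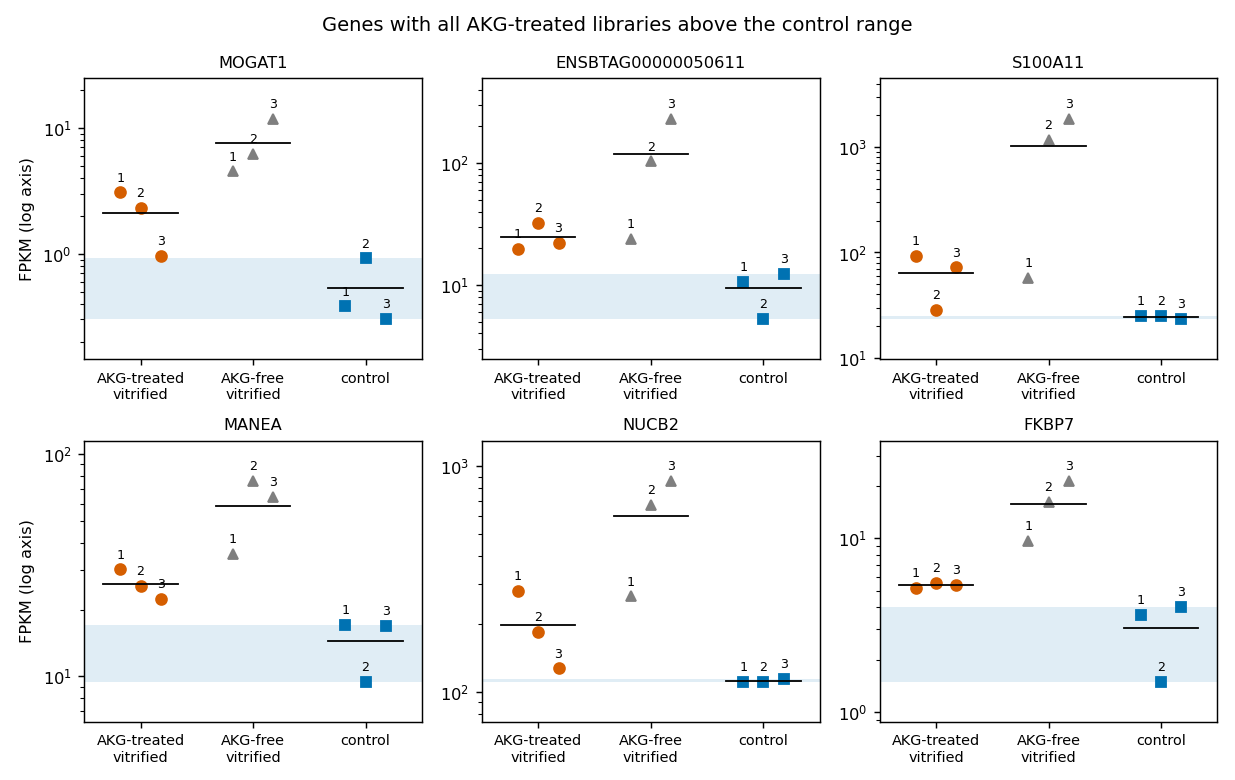
FPKM on a log axis in each library of the 3 groups for the 6 genes whose AKG-treated libraries all lie above the control range. Points are libraries, marked with their replicate number, black lines are group means and the blue band spans the lowest to the highest control library. AKG-free library 1 is the lowest of its group for all 6 genes, and AKG-treated library 3 is the lowest of its group for MOGAT1, MANEA and NUCB2.

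Transcripts with no or hardly any reads in controls were seen at traces in some AKG-treated libraries. CRYAB (ENSBTAG00000000434, chromosome 15, 22242326 to 22246349), a chaperone that keeps unfolding proteins in solution, had 0.464, 0.266 and 0 FPKM in AKG-treated libraries 1 to 3, from 37, 23 and 0 counts. AKG-free libraries had 7.25, 9.47 and 17.3 FPKM, and control libraries had 0 counts. A floor of 3 counts in a control library corresponds to 0.0313 to 0.0432 FPKM, so the AKG-treated mean of 0.243 ± 0.233 FPKM was at least 6.51-fold higher (edgeR adjusted p = 0.27). Only libraries 1 and 2 carry this difference. Without AKG-treated replicate 3 the edgeR adjusted p was 0.0522. That fit leaves out the AKG-treated library with 0 counts, so its lower p is no further support for a difference. CCL27, a chemokine best known from skin, had 11 counts in AKG-treated library 1, which is 0.455 FPKM, and 0 counts in AKG-treated libraries 2 and 3 and in control libraries, so it was not tested. Its AKG-free libraries had 3.91, 12.2 and 4.56 FPKM. Such floors cover counting error only, as the reads were amplified and carry no molecular identifiers.

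PAG11 (ENSBTAG00000022759, chromosome 29, 39438824 to 39456485), a member of the pregnancy-associated glycoproteins that ruminant trophoblast secretes, had 1.36, 17.1 and 2.9 FPKM in AKG-treated libraries 1 to 3, against 42.2, 67.9 and 24 FPKM in AKG-free libraries and 1.52, 0 and 1.44 FPKM in control libraries. AKG-treated library 2 lay far above the controls, library 3 also above them but by less, and library 1 within them. The log2 fold change of 2.85 had an SE of 1.65 (95% interval -1.18 to 6.87, edgeR adjusted p = 0.423), and without AKG-treated replicate 2 it was 1.11. PAG11 has many near-identical relatives, among which reads could have been divided. In such samples fewer cells of a type and less RNA per cell cannot be told apart. AIF1, which bundles actin and marks macrophages, had 12.4, 27 and 12.2 FPKM in AKG-treated libraries, against 5.11, 13.2 and 7.29 FPKM in control libraries. Libraries 1 and 3 lay just under the highest control library and library 2 above it, and the log2 fold change was 1.01 (SE 0.57, 95% interval -0.38 to 2.40, edgeR adjusted p = 0.423).

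ROGDI and NPSR1 were the genes with AKG-treated libraries below the control range in 2 of 3 cases and none above it, beside the noncoding ENSBTAG00000052882. ROGDI (ENSBTAG00000016331, chromosome 25, 3872510 to 3882364), a leucine zipper protein of a complex that regulates the vacuolar proton pump, had 15.6, 12.1 and 21.7 FPKM in AKG-treated libraries 1 to 3, against 5.49, 2.71 and 5.3 FPKM in AKG-free libraries and 19.6, 39.5 and 23.9 FPKM in control libraries. Only AKG-treated library 3 reached the control range. The mean was 16.5 ± 4.89 FPKM in AKG-treated and 27.7 ± 10.4 FPKM in control libraries, a log2 fold change of -0.75 (SE 0.47, 95% interval -1.89 to 0.40, edgeR adjusted p = 0.423), and it stayed below 0 under each alternative, from -1.18 to -0.40.

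NPSR1 (ENSBTAG00000013768, chromosome 4, 62120709 to 62274639), the G protein-coupled receptor of neuropeptide S, was present in 1 AKG-treated library and nearly absent from the others. Its levels were 57.3, 0 and 0.128 FPKM in AKG-treated libraries 1 to 3, from 4630, 0 and 12 counts, against 116, 23.2 and 93.6 FPKM in control libraries. The 0 counts of AKG-treated library 2 allow up to 0.0338 FPKM at a floor of 3 counts. AKG-free libraries had 0 counts. The log2 fold change of -2.02 had an SE of 2.42 (95% interval -7.92 to 3.88, edgeR adjusted p = 0.876). Its size depended on the method, with -2.02 in DESeq2, -4.00 in limma and -8.47 with the replicate block in edgeR. NPSR1 was the 1 gene that was lower in limma before adjustment, and its limma adjusted p was 0.174. AKG-treated library 1 lay between control libraries, and the other two lay far below all of them. Without AKG-treated replicate 1 the log2 fold change was -10.18, with an edgeR adjusted p of 0.127. That fit leaves out the only AKG-treated library within the control range, so its larger difference and lower p are no further support for a difference.

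For 5 genes the AKG-treated libraries were all within the control range. CARMIL1 (ENSBTAG00000016549, chromosome 23, 32267215 to 32573502), which regulates the capping of actin filaments, had 3.42, 5.23 and 5.01 FPKM in AKG-treated libraries, against 0.573, 0.992 and 0.396 FPKM in AKG-free libraries and 3.12, 9.01 and 3.81 FPKM in control libraries. TPRG1, named for its regulation by the transcription factor p63, had 0.915, 0.677 and 1.14 FPKM in AKG-treated libraries, against 0 counts in AKG-free libraries and 0.26, 1.16 and 0.662 FPKM in control libraries. GPD2, the mitochondrial glycerol-3-phosphate dehydrogenase that passes electrons to the respiratory chain, had 5.03, 6.11 and 2.92 FPKM in AKG-treated libraries, against 11.9, 9.05 and 12.9 FPKM in AKG-free libraries and 2.53, 9.07 and 4.35 FPKM in control libraries. For these genes the AKG-treated libraries lay apart from the AKG-free libraries and inside a control range that was 2.89-fold to 4.46-fold wide. For GPD2 the control range also held AKG-free library 2, at 9.05 FPKM, so lying within it did not set the AKG-treated libraries apart.

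ENSBTAG00000053922, a long noncoding RNA on chromosome 4 (19160155 to 19196937), had 10.9, 8.26 and 8.23 FPKM in AKG-treated libraries, against 0 counts in AKG-free libraries and 4.87, 13.1 and 0 FPKM in control libraries. GNAS (ENSBTAG00000047223, chromosome 13, 57465320 to 57532635), the imprinted gene of the stimulatory G protein α subunit, had 17.7, 2.95 and 38.5 FPKM in AKG-treated libraries, against 2.86, 0.817 and 0.834 FPKM in AKG-free libraries and 2.65, 90.6 and 10.8 FPKM in control libraries. A range from 2.65 to 90.6 FPKM makes it easy to lie within, and AKG-treated library 2 stood next to AKG-free library 1.

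Control library 2 was the highest control for all 5 of these genes. Without it no gene (0 of 26) had all AKG-treated libraries within the control range, and without control replicate 1 there were 2. The log2 fold changes were -0.22 for CARMIL1 (95% interval -1.55 to 1.11), -0.18 for GPD2 (95% interval -1.66 to 1.30), -0.81 for GNAS (95% interval -4.27 to 2.64), 0.39 for TPRG1 (95% interval -1.12 to 1.90) and 0.61 for ENSBTAG00000053922 (95% interval -3.16 to 4.38), all with an edgeR adjusted p of 0.876. Without control replicate 2, the sign was the opposite for CARMIL1 (0.39), GPD2 (0.45) and GNAS (1.55), and DESeq2's size factors gave -0.06 for TPRG1. Control library 2 was the highest or lowest of its group for 23 of the 26 genes, control library 1 for 17 and control library 3 for 10. Control library 2 also had the lowest relative depth, 0.793, and the part of depth in its distance from the others was not tested.

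The remaining tested genes had AKG-treated libraries on both sides of a control limit. Among lipid enzymes, LIPH, a phospholipase that releases lysophosphatidic acid, had 5.48, 4.96 and 1.74 FPKM in AKG-treated libraries, against 4.42, 2.11 and 3.68 FPKM in control libraries. PLA2G7, which hydrolyses platelet-activating factor and oxidised phospholipids, had 0.954, 0.286 and 1.05 FPKM in AKG-treated libraries, against 0.574, 0.348 and 0.781 FPKM in control libraries. In both, 2 AKG-treated libraries lay above and 1 below the control range. Of the 3 glycerolipid and phospholipid enzymes on the list, MOGAT1 was the 1 with all AKG-treated libraries above controls, beside 6 of all 26 tested genes (23.1%), and 0 of 3 passed the adjusted test, as did 0 of the 26.

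COX7B2, a subunit of cytochrome c oxidase, had 43.4, 72.9 and 50.9 FPKM in AKG-treated libraries, against 58.8, 285 and 322 FPKM in AKG-free libraries and 58.4, 45.4 and 49.4 FPKM in control libraries. DDIT4L, an inhibitor of mTOR signalling, had 3.08, 1.49 and 3.53 FPKM in AKG-treated libraries, against 3.2, 1.58 and 3.01 FPKM in control libraries. Each had 1 AKG-treated library slightly above, 1 slightly below and 1 within the control range. Their log2 fold changes were 0.13 (95% interval -0.85 to 1.10) for COX7B2 and 0.05 (95% interval -1.22 to 1.33) for DDIT4L. With TMM factors these were -0.25 and -0.27, so the sign of both depends on the scaling.

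ENSBTAG00000052882, a long noncoding RNA on chromosome 7 (16752338 to 16775155), had the narrowest 95% interval of the 25 genes with one. Its levels were 54.5, 63.5 and 52.2 FPKM in AKG-treated libraries, against 75.8, 171 and 149 FPKM in AKG-free libraries and 57, 67.6 and 56.5 FPKM in control libraries. AKG-treated libraries 1 and 3 lay a little under the lowest control. Its log2 fold change was -0.09 (SE 0.36, 95% interval -0.96 to 0.78, edgeR adjusted p = 0.88). ENSBTAG00000038893, a protein-coding gene without a symbol, had 4.52, 7.32 and 6.6 FPKM in AKG-treated libraries, against 7.21, 1.48 and 6.12 FPKM in control libraries, so that only AKG-treated library 2 lay outside the control range.

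DMKN and CYP27B1 were among the transcripts of low level in both groups. DMKN, a secreted protein of the epidermis, had 0.44, 0.232 and 0.0517 FPKM in AKG-treated libraries, against 0.446, 0.144 and 0.475 FPKM in control libraries. CYP27B1, the enzyme that activates vitamin D, had 0.363, 0.0514 and 0.0721 FPKM in AKG-treated libraries, against 0.27, 0 and 0.151 FPKM in control libraries. Their AKG-free libraries reached 7.62 FPKM for DMKN and 4.03 FPKM for CYP27B1. The 95% intervals ran from -2.62 to 1.48 for DMKN and from -3.34 to 3.77 for CYP27B1 on the log2 scale, and the part of counting error in their width was not tested. Wide intervals were not particular to low transcripts, as those of GNAS and NPSR1 show.

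**Figure D3:**
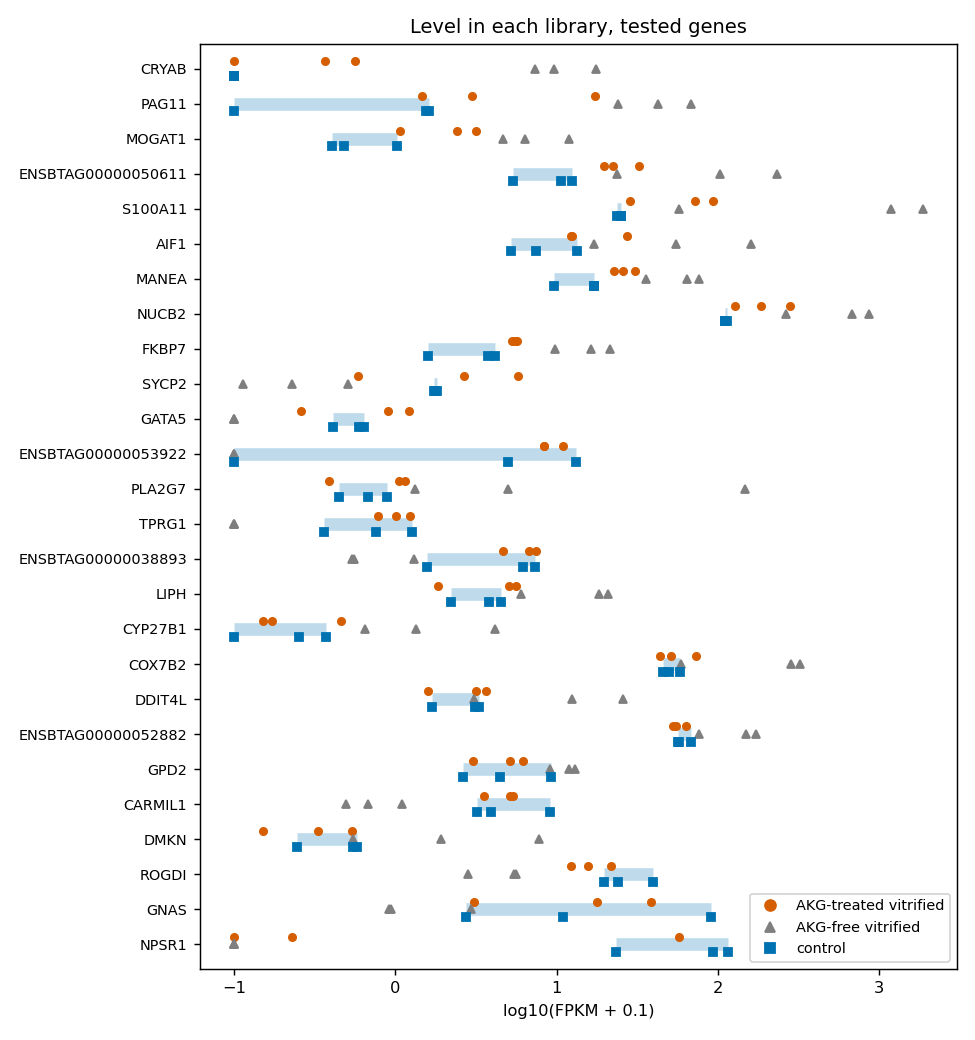
Level in each library as log10(FPKM + 0.1) for the 26 tested genes, with AKG-treated vitrified (circles), AKG-free vitrified (triangles) and control libraries (squares). Blue bars span the lowest to the highest control library, and genes run from the highest log2 fold change of AKG-treated over control at the top to the lowest at the bottom. Circles lie right of the bar for 6 genes and inside it for 5, and no gene has all circles left of the bar.

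Libraries of a group differed most for a few genes. On log2(FPKM + 0.5), the range over the 3 libraries was above 2, with at least 30 counts in the highest library, for 4 of the 26 genes in AKG-treated and for 4 in control libraries, and 3 of these were shared. NPSR1 had a range of 6.85 in AKG-treated and 2.30 in control libraries, GNAS 3.50 and 4.86, and PAG11 3.24 and 2.01. The control range of PAG11 was thus only just above the limit of 2. On log2(FPKM + 1), 4 genes were wide in AKG-treated and 3 in control libraries. SYCP2, a component of the synaptonemal complex of meiotic chromosomes, was wide in AKG-treated libraries only, and ENSBTAG00000053922 in control libraries only. The median range was 0.95 in AKG-treated, 1.25 in AKG-free and 0.87 in control libraries. Without AKG-treated replicate 2, 1 gene was wide in the AKG-treated group, and without control replicate 1 or 2 there were 2 and 1 in the control group. A range over fewer libraries can only be equal or smaller, so these falls alone do not show that the widths rest on single libraries.

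SYCP2 had 2.56, 5.64 and 0.488 FPKM in AKG-treated libraries 1 to 3, against 0.128, 0.0128 and 0.409 FPKM in AKG-free libraries and 1.71, 1.64 and 1.67 FPKM in control libraries. The AKG-treated libraries lay on both sides of controls that hardly differed among themselves. The log2 fold change was 0.79 (SE 0.83, 95% interval -1.23 to 2.80, edgeR adjusted p = 0.876) and -0.13 without AKG-treated replicate 2. GATA5, a transcription factor known from endoderm and heart, was likewise split, with 0.161, 1.11 and 0.795 FPKM in AKG-treated libraries, 0 counts in AKG-free libraries and 0.536, 0.497 and 0.312 FPKM in control libraries.

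The coefficient of variation (SD over mean) was higher in AKG-treated than in control libraries for 14 of the 25 genes with reads in both groups and lower for 11, with medians of 39.8% and 44.9%. In control libraries 3 genes had a coefficient of variation under 5%, and for each the AKG-treated libraries were far more spread. S100A11 had 50.9% in AKG-treated and 3.86% in control libraries, NUCB2 39.3% and 1.72%, and SYCP2 89.5% and 1.95%. FKBP7 showed the opposite, with 3.43% in AKG-treated and 44.9% in control libraries. With 3 libraries a group these spreads are themselves imprecise, and their difference was not tested.

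**Figure D4:**
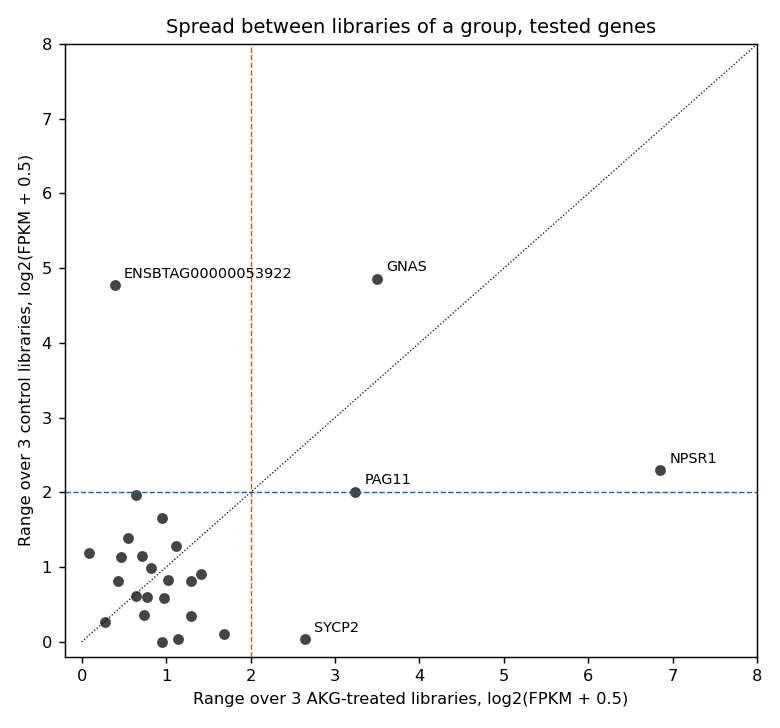
Range over the 3 AKG-treated libraries (x axis) and over the 3 control libraries (y axis) on log2(FPKM + 0.5) for the 26 tested genes. Dashed lines mark a range of 2 and the dotted line equal ranges; NPSR1, GNAS and PAG11 lie beyond both dashed lines, SYCP2 beyond the AKG-treated one and ENSBTAG00000053922 beyond the control one.

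Of the 26 genes, 11 lay above the control range in AKG-treated library 1, 14 in library 2 and 10 in library 3, and 6 of these were the same genes in all 3 libraries. Below the control range lay 4, 4 and 5 genes, none of them in all 3 libraries. CYP27B1 was above in library 1 only, AIF1, COX7B2 and ENSBTAG00000038893 in library 2 only, and DDIT4L in library 3 only. GATA5 and COX7B2 were below in library 1 only, DDIT4L and PLA2G7 in library 2 only, and LIPH, SYCP2 and DMKN in library 3 only. Library 3 was the lowest of its group for 11 genes, library 2 for 8 and library 1 for 7.

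For 20 listed genes the AKG-treated and control libraries alike had 0 counts, and their reads were in AKG-free libraries alone, for 18 of them in 1 library. They include PYCARD, the adaptor of inflammasomes, with 0, 5.77 and 1.63 FPKM in AKG-free libraries 1 to 3, and PRSS48, a serine protease, with 1.22, 1.39 and 0 FPKM. FAM237B had 3.18 FPKM and TMEM217 2.56 FPKM, each in AKG-free library 2 only. These genes give no difference between AKG-treated and control libraries at this depth. Of the pathway lists, the chaperones and glycan-processing enzymes had 3 of 10 genes among the listed ones, calcium-binding proteins 2 of 6, glycerolipid and phospholipid enzymes 3 of 7, inflammation 3 of 5, G protein signalling 2 of 4, cytoskeleton and endosome 2 of 3, mitochondria and energy 1 of 7 and meiosis 1 of 3, and 0 of their tested members passed the adjusted edgeR test in either direction, as did 0 of all 26 tested genes. The pathway lists were chosen with earlier results of these data known, so the shares found are no measure of how well a pathway is represented. Of the 3 inflammation genes only AIF1 was tested, since CCL27 and PYCARD had too few or no counts, and the listed members of the other lists were all tested. No gene of the lists for oxidative stress (9 genes) or apoptosis (4 genes) was among the listed genes, and those were not analysed here.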

How the data were processed

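Bovine blastocyst RNA was measured in 9 libraries, of which the 3 AKG-treated vitrified and the 3 control libraries were compared. Per the labels' protocols, RNA from a micro kit was amplified with a SMART-Seq v4 kit and sequenced in pairs. The submitters' processing notes name HISAT2 2.0.4, StringTie 1.3.4d, cutadapt 1.9 and edgeR without saying what each did. Per the file headers, the deposited values are FPKM and, in the series table, the count per gene, and the FPKM of all 9 single-library tables were identical to those of the series table. FPKM is not corrected for composition, and counting is not stated to use strand. How the authors chose the 47 genes is not stated in the sources used here, and their own test results were left aside.

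Relative depth was the median ratio of count to FPKM over 13 genes whose counts reached 100 in every library, from which single genes deviated by at most 0.811%. The test was edgeR's quasi-likelihood test (version 4.0.16, R 4.3.3; 1 common dispersion, no trend) on the deposited counts of the 6 libraries, with relative depth as library size, for genes with a mean of at least 10 counts, and Benjamini-Hochberg adjustment over the 26 tested genes. Standard errors came from the same fit. The test was also run on counts simulated with planted changes and set dispersions, which need not match the spread of these libraries. Alternatives were limma 3.58.1 on log2(FPKM + 1), DESeq2 1.42.0 (outlier filter off), other scalings and filters, all 9 libraries, the replicate block, and leaving out each library. Named were all tested genes, the untested gene with reads, and, of genes without reads in the 6 libraries, the 4 with a symbol and the highest AKG-free mean. Members, lists and tests were chosen with earlier results of these data known. Python 3.11.15 with pandas 2.3.3 and matplotlib 3.10.9 was used for summaries and plots.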

Additional observations from a re-analysis of the deposited data

How the results depend on the processing

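The number of genes passing the adjusted threshold was 0 higher and 0 lower under each of the 15 alternatives, and the sign of the log2 fold change held for 16 of 26 genes. For the 6 genes with all AKG-treated libraries above the control range, only the other scalings could have turned it. Other signs turned with TMM factors for LIPH (-0.16), COX7B2 (-0.25), CYP27B1 (-0.20), DDIT4L (-0.27) and ENSBTAG00000038893 (-0.02). DESeq2's size factors gave -0.24, -0.33, -0.26, -0.35 and -0.10 for these and -0.06 for TPRG1, and both scalings lower all values by construction where the median gene is above 0. Leaving out 1 library gave -0.13 to 1.29 for SYCP2, -0.003 to 0.97 for TPRG1, -1.75 to 1.55 for GNAS, -0.12 to 0.69 for ENSBTAG00000038893, -0.02 to 0.62 for LIPH, -0.49 to 0.39 for CARMIL1, -0.11 to 0.28 for COX7B2, -0.52 to 0.45 for GPD2, -1.14 to 1.09 for CYP27B1 and -0.20 to 0.35 for DDIT4L, and the cause was not tested. Genes with all AKG-treated libraries above the control range numbered 6, but 1 after TMM scaling and 1 with a gap of 1.5-fold, and 6 to 9 without 1 library. Those all below numbered 0, but 2 after TMM scaling (ROGDI and ENSBTAG00000052882) and 0 to 2 without 1 library, and those all within numbered 5, and 0 to 7 without 1 library. After TMM scaling 4 genes lay all within, of which 2 were among the 5 (TPRG1 and ENSBTAG00000053922). Leaving out 1 library can only keep or raise the numbers all above and all below, so those ranges are no check on them. Widely spread genes numbered 11 in AKG-treated and 11 in control libraries with a limit of 1 log2 unit, and 4 and 3 on log2(FPKM + 1). Without 1 library they numbered 1 to 3 in each group. Leaving out a library cannot widen a range, so the last numbers could only stay or fall. Genes at an unadjusted p under 0.05 numbered 0 higher without control replicate 1 or 3. Replicate numbers are not stated to mark a shared batch. Deviations of same-numbered libraries from their group means correlated at 0.19, -0.21 and -0.23 over the 26 genes. Those of differently numbered libraries ran from -0.59 to 0.54. With 3 libraries a group and 26 listed genes, these values cannot decide whether the libraries are paired. The fit with the replicate block also gave 0 higher and 0 lower, and turned GNAS to 0.74. All intervals rest on 3 libraries a group, and the parts of depth and of the spread between libraries in their width were not tested.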
